A study of Mus musculus with 18 samples.

Results

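Tumours of male C57BL/6 mice given azoxymethane (AOM) were compared with intestine of mice that received saline instead, all on control diet. The comparison used 6 of the 18 arrays of the series: 3 labelled as AOM tumour and 3 labelled as saline non-tumour, chosen by those labels alone. A second reference, 3 arrays of non-tumour tissue from AOM mice on control diet, was set beside it. It served to ask which tumour changes went beyond, matched or were masked relative to tissue that had met the carcinogen. The remaining 9 arrays were saline, AOM non-tumour and AOM tumour samples of mice whose feed held St. John's wort (SJW), 3 each. Every sample was labelled with Cy5 (red) and hybridised against 1 Cy3-labelled commercial pool of Swiss Webster mouse RNA, which held no intestine, so levels are log2 of sample over pool. Ages, AOM doses and times of collection are not given in the sources used here, and the sources do not say whether AOM non-tumour and tumour samples came from the same mice. The series calls its samples biological replicates, and p-values measure the spread between them.

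The labels name small intestine, whereas the extraction protocol names liver. In saline samples the colon-associated gene Car1 (7.45 to 8.21) and the intestinal transcription factor Cdx1 (5.29 to 6.11) stood far above the pool on the log2 scale. The small intestinal brush border enzymes Sis (0.04 to 1.33), Alpi (-0.13 to 0.21) and Lct (-0.04 to 0.36) stood near the level of the pool, which held no intestine. The tissue is therefore called intestine here. Median red intensity was 155.5 to 375 on the saline arrays and 359 to 786.5 on the tumour arrays, and 73.7% to 83.5% against 80.5% to 91.8% of spots were well above background. Saline and AOM non-tumour arrays shared 3 slides of 1 scan day and tumour arrays lay on 2 slides of another, so tumour and slide or scan day cannot be told apart, also in the comparison with AOM non-tumour tissue. In whole tissue, fewer cells of a type and less RNA per cell cannot be told apart either.

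AOM is a colon carcinogen whose tumours in mice commonly carry activated Wnt signalling. Wnt signals stabilise beta-catenin, which joins TCF/LEF proteins on DNA and switches on genes of the crypt base, among them inhibitors that feed back on the pathway itself. Colonocytes and goblet cells mature as they leave the crypt, and gain ion and water transport, mucus and detoxifying enzymes on the way.

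Of the 23 genes listed as Wnt feedback inhibitors and targets, 21 rose in tumours against saline and 0 fell, with a median log2 change of 2.07. Over all 26075 genes, 13.2% were called higher and 19.6% lower, with a median of -0.04. A gene is called here at a Benjamini-Hochberg adjusted p below 0.05 in limma. Against AOM non-tumour tissue 18 of the 23 rose, with a median of 1.29, where 12.7% of all genes were called higher. The same tumour arrays enter both comparisons. The members that were called against neither reference were Ephb2, a receptor of crypt cells (0.27 against saline), and Lrp4, a co-receptor (-0.37).

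Promoter letters are shown for Sp5, a transcription factor and Wnt target that rose 13.2-fold, and for Slc26a3, the chloride exchanger of surface colonocytes, which fell 97.2-fold. They let the core TCF/LEF motif CTTTGA be seen in a gene that rose and in one that fell. Capitals mark the motif on either strand (TCAAAG is its reverse complement). The Sp5 stretch runs from 234 to 69 bases before the gene start, chr2:70474689-70474854 on the plus strand. The Slc26a3 stretch runs from 167 to 102 bases before it, chr12:31438052-31438117 on the plus strand. Both come from RefSeq on GRCm38.p6.
Sp5: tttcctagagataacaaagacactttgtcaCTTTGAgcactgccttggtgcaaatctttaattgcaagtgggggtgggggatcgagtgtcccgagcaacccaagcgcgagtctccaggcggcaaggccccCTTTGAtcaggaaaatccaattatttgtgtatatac
Slc26a3: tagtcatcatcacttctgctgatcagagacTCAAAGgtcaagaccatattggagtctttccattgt
In the 250 bases before the start, 4544 of 32851 RefSeq promoters (13.8%) held the motif on either strand. Among the Wnt genes 15 matched the promoter table by symbol, with 22 windows, of which 3 (13.6%) held it. The share in this window was thus that of all promoters, and a match is a description of letters, not a binding site.

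Wif1, a secreted inhibitor that binds Wnt ligands, had the largest rise of all genes. Its log2 levels were -0.40, -0.08 and 0.29 in the 3 saline samples, 2.01, 4.13 and 2.14 in AOM non-tumour tissue and 5.48, 5.82 and 5.83 in tumours. The 3 groups did not overlap, and AOM tissue lay between saline and tumour. The tumour change against saline was 5.77 ± 0.58 (SE, n = 3 against 3), or 54.7-fold, with a limma adjusted p of 2.7e-06, and 2.95 against AOM tissue. The difference of 2.82 between the comparisons, which is AOM against saline itself, had an adjusted p of 0.0385. That last call was lost when any 1 of 7 arrays of the control diet was left out and held in 2 of 9 such fits, whereas the tumour call held in all 9.

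Nkd1, an intracellular inhibitor of Wnt signalling, showed the same order. Saline samples had log2 levels of -1.35, -0.99 and -1.23, AOM tissue 0.61, 1.51 and 0.22 and tumours 2.62, 3.26 and 2.54. Its groups did not overlap, with tumours highest. The change against saline was 4 ± 0.29 (limma adjusted p = 1.84e-07), against 2.03 over AOM tissue, and the AOM step of 1.97 was called too (adjusted p = 0.00797). Sp5 was at -0.65, -0.19 and -0.59 in saline, 0.35, 1.73 and 0.12 in AOM tissue and 2.71, 3.45 and 3.56 in tumours. Here too the groups did not overlap, but the AOM step of 1.21 was not called (adjusted p = 0.0913), while the tumour change of 3.72 ± 0.32 against saline was.

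Axin2, a scaffold of the beta-catenin destruction complex and a standard Wnt readout, was at 0.48, 0.06 and 0.71 in saline, 1.04, 2.02 and 1.14 in AOM tissue and 2.86, 3.25 and 3.41 in tumours. Every tumour lay above every non-tumour sample. It rose by 2.76 ± 0.28 against saline (limma adjusted p = 3.18e-06) and by 1.77 against AOM tissue, and the AOM step of 0.98 was not called (adjusted p = 0.111). The secreted Wnt deacylase Notum had a change of 3.82 against saline and 2.48 against AOM tissue, and Lgr5, the R-spondin receptor of crypt base stem cells, 2.33 and 1.5. All 4 of those changes were called. Myc, a growth-promoting transcription factor, rose less, by 0.99 ± 0.27 (adjusted p = 0.0104), with tumours at 1.01, 0.97 and 2.24 and saline samples at 0.38, 0.56 and 0.33. Tumour 3 lay well above the others, and no tumour overlapped the saline samples.

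Dkk2, a secreted Wnt antagonist, was not well above background on any of the 3 saline arrays. Its sample-channel signal was higher in tumours by at least 8.16-fold (limma adjusted p = 0.00109). Such a bound sets the mean normalized brightness of the tumour probe against a value for each saline array. That value was the gene's own signal or the dimmest signal that counts as well above background, whichever was brighter. Against AOM tissue its log2 difference of 1.29 was not called (adjusted p = 0.0759), and 1 AOM sample (2.97) lay above all tumours (2.34 to 2.64). Apcdd1, another membrane inhibitor, was likewise not well above background in any saline sample, with tumours at least 7.68-fold above (adjusted p = 3.4e-05). Dkk2 and Apcdd1 entered the test only because other groups were well above background. Their calls and their places in the list counts are therefore not independent of that filter.

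**Figure D1:**
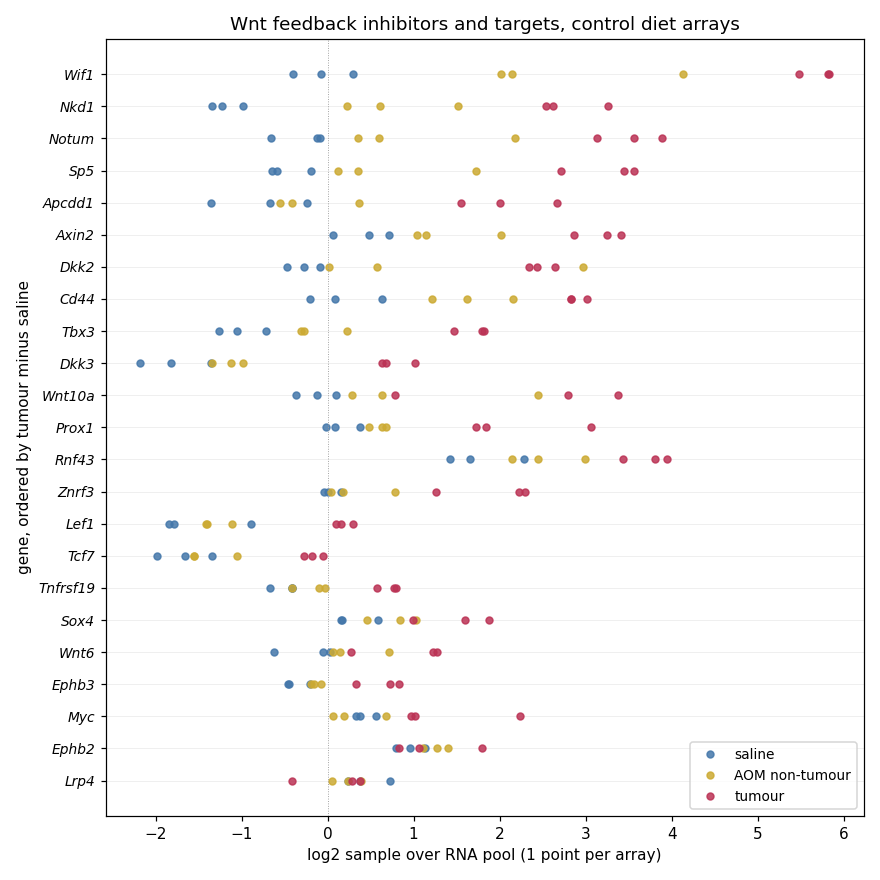
Each point is the log2 sample over pool level of a Wnt list gene on 1 array, with 3 saline, 3 AOM non-tumour and 3 tumour arrays of the control diet. Genes are ordered by tumour minus saline, from Lrp4 (-0.37) to Wif1 (5.77), and for most upper genes the AOM points lie between the others.

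Across all genes, 8568 of 26075 (32.9%) were called between tumour and saline, 3450 higher and 5118 lower. Called rises were smaller than called falls: 791 genes rose and 2081 fell at least 2-fold, 165 and 409 at least 4-fold, and 50 and 109 at least 8-fold. The groups of 3 did not overlap in 3270 of the called rises and 4824 of the called falls, while 19% and 24.3% of all genes were apart in those directions. The split depends on the scaling. When arrays were instead shifted to a common median, without loess (median-centred arrays), 68.8% of calls were rises against 40.3% here, and the median of all genes moved from -0.04 to 0.14. Small changes are therefore read relative to that shift. List counts with median-centred arrays are read against the 6598 genes called higher and 2993 lower in that setting, of 26075.

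The largest falls were in genes of the colonocyte surface. Car4, a membrane carbonic anhydrase, had log2 levels of 3.58, 3.70 and 3.20 in saline, 2.86, 3.07 and 2.54 in AOM tissue and -2.74, -2.64 and -4.19 in tumours. Tumours lay far below both references, which were close to each other. The change was -6.68 ± 0.40 (limma adjusted p = 6.25e-08), a 103-fold lower level, against -6.01 over AOM tissue. Slc26a3 was at 6.97, 6.61 and 7.65 in saline, 6.09, 6.32 and 5.56 in AOM tissue and 0.38, 0.97 and 0.06 in tumours, with no overlap of the 3 groups. It changed by -6.6 ± 0.38 (adjusted p = 4.51e-08). The water channel Aqp8 went from 4.01 to 4.18 in saline to -2.67 to -1.68 in tumours, a change of -6.09.

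Of 18 colonocyte transport and differentiation genes, 17 fell against saline and 1 rose, with a median of -3.31, and 16 fell and 1 rose against AOM tissue, with a median of -2.32. The gene that rose was Slc9a3, an apical sodium-proton exchanger, by 1.95 against saline. With median-centred arrays 16 of the 18 fell, and in the deposited table, which holds 11 of them, 10 fell. Hsd11b2, which inactivates glucocorticoids in epithelium that answers to aldosterone, fell by 3.67 and all 3 sodium channel subunits of the list fell too, Scnn1a by 3.17, Scnn1b by 2.5 and Scnn1g by 2.25. The sugar-phosphate exchanger Slc37a2 was the colonocyte gene that had also fallen in AOM tissue. It was at 4.29, 4.25 and 3.98 in saline, 2.15, 2.52 and 1.39 in AOM tissue and 0.04, -0.40 and -0.12 in tumours, a stepwise fall without overlap. The AOM step was -2.15 (limma adjusted p = 0.0058) and the tumour step a further -2.18.

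**Figure D2:**
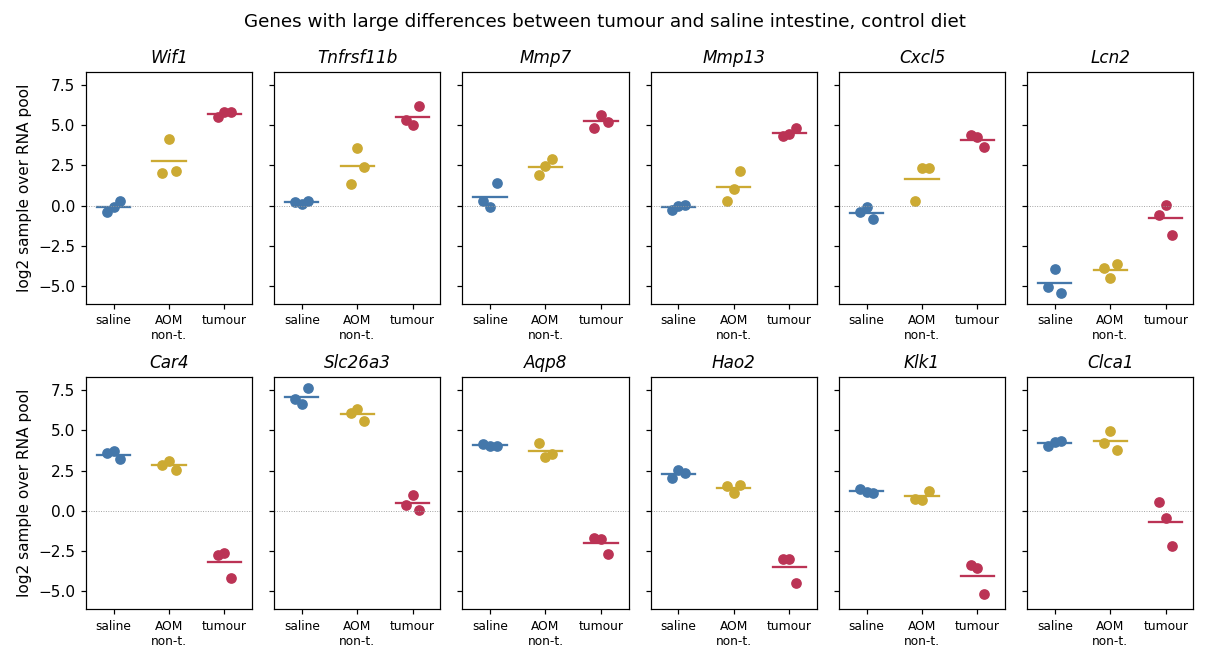
Log2 sample over pool levels of 12 genes with large differences between tumour and saline intestine, by array (points) and group mean (lines), 3 arrays a group. Top: AOM non-tumour samples lie above saline for Wif1 (2.01 to 4.13 against -0.40 to 0.29), and bottom: they lie close to saline for Aqp8, with tumours at -2.67 to -1.68.

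Secretory lineages were lower against both references. Of 14 goblet cell genes 13 fell against saline (median -2.30) and 13 against AOM tissue (median -2.39). The deposited table holds 8 of the 14, of which 7 fell against saline. Clca1, a secreted mucus-processing protein, was at 4, 4.25 and 4.33 in saline, 4.22, 4.94 and 3.78 in AOM tissue and 0.54, -0.46 and -2.19 in tumours. Both non-tumour groups lay together, and all tumours below them. Zg16, a mucus-layer lectin, fell by 4.29 and Muc2, the gel-forming mucin, by 2.34. Atoh1 and Spdef, transcription factors that set the secretory and goblet fates, fell by 2.25 and 2.57 against saline. Of 23 enteroendocrine genes, 16 fell against saline (median -1.03) and 17 fell and 1 rose against AOM tissue (median -1.38). Gcg, the glucagon and GLP-1 precursor, went from 3.76 to 4.73 in saline to 0.53 to 1.12 in tumours, and Pyy, an ileal and colonic hormone, from 3.33 to 3.67 to -0.01 to 1.21. The Pyy fall of 2.84 was absent when the red channel was used alone.

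Genes of the Paneth cell, the antimicrobial cell of the small intestinal crypt, did not follow the other secretory lists. Of the 9 that were measured 5 rose and 1, the lectin-like Mptx1, fell by 2.92. Defa23, an alpha-defensin, was at -0.13, -0.12 and 0.23 in saline, 4.41, 4.81 and 3.20 in AOM tissue and 5.70, 5.60 and 5.37 in tumours. AOM tissue already stood well above saline and below all tumours. The tumour change was 5.56 against saline (limma adjusted p = 3.15e-06) but 1.42 against AOM tissue (adjusted p = 0.067). Probes of the defensins may not separate these near-identical copies. Lyz1, the Paneth cell lysozyme, rose by 1.36 against saline, and Reg3b, an antimicrobial lectin, had a change of 0.02 that was not called.

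Of 31 genes of xenobiotic metabolism 22 fell and 2 rose against saline, with a median of -1.99, against 19 and 3 over AOM tissue, with a median of -1.46. Ces2c, a carboxylesterase, was at 3.78, 3.78 and 3.92 in saline and -1.1, -1.64 and -1.72 in tumours, a change of -5.31 ± 0.35 (limma adjusted p = 9.97e-08) with AOM tissue at 2.80 to 3.14. Its tumour and saline samples were wide apart and each group tight. Cyp2c55, a cytochrome P450, fell by 5.03 and Sult1a1, a sulfotransferase, by 3.05. Cyp3a11, the P450 most used as a readout of the xenobiotic receptor PXR, was at 0.36, 0.63 and 1.15 in saline, -0.31, 0.04 and -0.42 in AOM tissue and -0.88, -0.76 and -0.94 in tumours. It fell by 1.57 against saline (adjusted p = 0.000268) but its change of -0.63 against AOM tissue was not called (adjusted p = 0.0728). The AOM step of -0.94 was not called either (adjusted p = 0.0981). The efflux pumps of the list differed among themselves, with Abcg2 down by 2.68 and Abcc2 up by 1.89.

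Markers of intestinal position were lower or mixed. Over all genes 13.2% were called higher and 19.6% lower against saline. Of 9 posterior gut genes 4 fell and 0 rose against saline (median -1.21). The count of falls was 2 without saline 1, without saline 3, without tumour 2, with median-centred arrays or with the scanner software's ratios. It was 1 with the deposited table, which holds fewer genes. Cdx1 fell from 5.29 to 6.11 in saline to 2.63 to 3.81 in tumours, by 2.52. Of 6 proximal gut genes 2 rose and 2 fell, the liver and duodenal factor Onecut2 by a rise of 2.95. Of 23 small intestinal enterocyte genes 15 fell against saline and 11 fell and 1 rose against AOM tissue, the fatty acid binding protein Fabp2 by 3.47 against saline. Of 8 claudins, the seal of tight junctions, 6 fell and 1, Cldn4, rose, by 1.81. With median-centred arrays 2 claudins fell.

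Metabolic lists were lower, by amounts that depended on the scaling. Of 19 genes of fatty acid oxidation and ketogenesis 17 fell against saline (median -1.12) and 15 against AOM tissue (median -0.90). Of 21 respiratory chain genes 18 fell against each (medians -0.74 and -0.88). With median-centred arrays 3 and 0 of them fell against saline, with medians of -0.53 and -0.13, in a setting where the median of all genes was 0.14. Hadh, a mitochondrial beta-oxidation dehydrogenase, was at 1.26, 1.03 and 1.26 in saline and -0.83, -0.86 and -0.62 in tumours, a change of -1.95 that was called under both scalings. Cox6c, a subunit of cytochrome c oxidase, changed by -1.15, which was not called with median-centred arrays. Clock genes followed the same pattern: 12 of 17 fell against saline (median -0.84), 9 against AOM tissue (median -0.53) and 6 against saline with median-centred arrays. The clock output factors Dbp and Tef fell by 2.38 and 2.22, each under both scalings. No source used here gives the time of day of collection.

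Of 28 cell cycle and mitosis genes 20 rose against saline (median 0.70) and 9 against AOM tissue (median 0.19), with 0 falls in either, and 13 rose against saline without the arrays of brightest reference channel. The difference between these counts is tested gene by gene by AOM against saline. That test called 3 of the 28, Plk1, Cdc20 and Cenpe, all higher in AOM tissue, where 0.456% of all genes were called higher. For Cenpe the 3 kept probes changed by -0.47 to 0.54 in tumours against saline, and the brightest, used here, gave 0.54. Plk1, a mitotic kinase, was at -1, -1.1 and -1.19 in saline, -0.38, -0.54 and -0.42 in AOM tissue and -0.03, -0.03 and 0.05 in tumours, 3 groups without overlap. It rose by 1.09 ± 0.14 (limma adjusted p = 2.1e-05). Cdc20, an activator of the anaphase-promoting complex, was at -1.39, -1.33 and -1.22 in saline, -0.38, -0.67 and -0.36 in AOM tissue and -0.73, -0.65 and -0.34 in tumours. AOM tissue and tumours overlapped for it, and its change of 0.74 against saline stood against -0.10 over AOM tissue. Mki67, the Ki-67 proliferation antigen, was at 1.58, 1.45 and 1.83 in saline and 1.43, 1.35 and 2.06 in tumours, with overlapping groups and a change of -0.01 ± 0.21 that was not called. That estimate turned positive under other scalings, up to 0.68. Of 18 ribosome biogenesis genes 13 rose against saline (median 0.52) and 8 against AOM tissue (median 0.32). Against saline 17 rose with median-centred arrays, 6 of the 11 that the deposited table holds, and 3 of 18 without the arrays of brightest reference channel.

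Crypt and fetal-like programmes moved in part. Of 10 crypt stem and progenitor genes 6 rose and 2 fell against saline, with Smoc2, a matricellular stem cell marker, up by 1.32. Of 13 fetal-like and regenerative genes 8 rose and 0 fell against saline (median 1.15), and 5 rose and 2 fell against AOM tissue (median 0.65). Ccn1, a secreted YAP target, rose by 1.54 and Il33, an alarmin, by 1.48. Clu, a secreted chaperone that marks regenerating epithelium, was at -2.39, -1.72 and -1.96 in saline and -0.46, 0.06 and -0.37 in tumours, without overlap, a change of 1.77. Anxa1, an anti-inflammatory annexin, was at 1.71 to 1.78 in saline and 1.94 to 2.10 in tumours, and its change of 0.27 was not called (limma adjusted p = 0.367).

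Matrix proteases were among the largest rises. Of 14 genes of metalloproteases and the plasminogen system 12 rose against saline (median 1.74) and 10 against AOM tissue (median 1.04), with 0 falls. Mmp7, the epithelial matrilysin, was at 0.30, -0.06 and 1.41 in saline, 1.90, 2.45 and 2.92 in AOM tissue and 4.85, 5.63 and 5.21 in tumours. Its groups did not overlap. It rose by 4.68 ± 0.54 against saline (limma adjusted p = 1.06e-05) and by 2.81 against AOM tissue. Mmp13, a collagenase, rose by 4.6 and Mmp10, a stromelysin, by 3.82, the latter from similar levels of 0.59 to 1.19 in saline and 1.34 to 1.56 in AOM tissue. Mmp12, the macrophage elastase, was not well above background in any saline sample, and tumours were at least 5.02-fold higher (limma adjusted p = 1.17e-06). It entered the test only through other groups. Its call and its place in the list count are therefore not independent of that filter.

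Of 25 inflammatory cytokines and effectors 19 rose and 2 fell against saline (median 1.21), and 15 rose and 2 fell against AOM tissue (median 0.88). Cxcl5, a neutrophil chemokine, was at -0.40, -0.11 and -0.84 in saline, 0.28, 2.31 and 2.32 in AOM tissue and 4.41, 4.24 and 3.65 in tumours. AOM samples spread widely between the other groups, and it rose by 4.55 ± 0.56 against saline (limma adjusted p = 1.88e-05). Lcn2, an iron-scavenging antimicrobial protein, was at -5.08, -3.91 and -5.44 in saline, -3.89, -4.48 and -3.62 in AOM tissue and -0.57, 0.01 and -1.80 in tumours. The non-tumour groups overlapped and all tumours lay above them, with a change of 4.02 against saline and 3.21 against AOM tissue. Il1b, a macrophage cytokine, rose by 1.77 and 1.94, and Tnf by 1.38 and 1.01. The chemokines Cxcl3 and Cxcl2 and the cytokine Il6 were not well above background in any saline sample. They were at least 4.26-fold, 2.71-fold and 1.9-fold higher in tumours, and they too entered the test only through other groups. With median-centred arrays Cxcl2 and Il6 were not called, and the Il6 change was -0.02 in place of 1.22.

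Several mediators rose against saline and were not called against AOM tissue. Ptgs2, the inducible cyclooxygenase, was at -0.49, -0.18 and -0.37 in saline, 0.06, 1.74 and 0.87 in AOM tissue and 1.73, 1.84 and 1.72 in tumours. The highest AOM sample reached the tumours. It rose by 2.11 (limma adjusted p = 0.000261), with 0.88 over AOM tissue (adjusted p = 0.0627). Nos2, the inducible nitric oxide synthase, rose by 1.60 against saline, with 0.26 over AOM tissue, and Duoxa2, a maturation factor of the dual oxidase, by 2.19, with -0.30. Their AOM steps of 1.23, 1.35 and 2.49 were not called (adjusted p = 0.103, 0.0847 and 0.0511), so a difference between the comparisons was not shown for these 3 genes.

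Markers of other cells moved with the tumours, and their part in the lists above was not tested. The counts below stand beside 13.2% of all genes called higher and 19.6% called lower against saline. Of 10 mast cell genes 8 rose and 0 fell against saline (median 2.03). Mcpt4, a chymase, was at 0.35, 0.00 and 0.67 in saline, 1.49, 2.96 and 0.97 in AOM tissue and 3.13, 2.39 and 4.09 in tumours. AOM and tumour samples overlapped and saline samples lay below both. Of 12 macrophage genes 9 rose and 1 fell (median 0.98), with the complement gene C1qb up by 1.66. Of 14 neutrophil genes 6 rose (median 0.43), a count of 3 without tumour 1 or without tumour 2. S100a8, a calprotectin subunit, stood at 2.10 and 1.81 in those tumours and at -0.21 in tumour 3, above -2.59 to -0.86 in saline. Of 18 fibroblast and matrix genes 13 rose (median 1.67), among them the basement membrane collagen Col4a1 by 2.77 and the matricellular Sparc by 2.40. Of 12 endothelial genes 6 rose (median 0.53), and 10 with median-centred arrays. Of 11 B and plasma cell genes 5 fell (median -0.26), and of 12 T cell genes 4 fell (median -0.25), a count of 0 with the scanner software's ratios. Ms4a1, the B cell antigen CD20, was at 1.14, 3.38 and 3.17 in saline and 0.30, -0.33 and -0.82 in tumours. Tumours lay below all saline samples, of which the first was nearest. Without the arrays of brightest reference channel, which leaves 1 saline array, 0 B and plasma cell and 0 T cell genes were called lower.

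The remaining lists are given beside the 13.2% of all genes called higher and the 19.6% called lower. Of 19 ERK feedback and immediate early genes 11 rose and 1 fell against saline (median 0.68), with the ERK phosphatase gene Dusp4 up by 1.98, while the change of Fos was -0.13 and was not called. Of 18 p53 target genes 9 rose and 3 fell (median 0.41), with the apoptosis effector Bax up by 1.21 and the desmosomal Perp down by 1.31, a fall that was not called with median-centred arrays. Of 15 BMP genes 6 rose and 1 fell (median 0.32), with Id3, a BMP-induced inhibitor of differentiation, up by 1.72 and the ligand Bmp7 by 1.77, and 10 rose with median-centred arrays. Of 14 antioxidant and aldo-keto reductase genes 4 rose and 4 fell, and 2 rose without saline 1 or without tumour 3. Of 19 sterol genes 4 fell, and 0 with median-centred arrays. Of 17 interferon-stimulated genes 2 rose and 1 fell, of 9 MHC class II genes 1 rose and 3 fell, and of 11 tuft cell genes 1 rose and 1 fell. Of 13 squamous genes 3 rose and 3 fell, of 12 heat shock genes 2 rose, of 5 erythroid genes 2 rose, of 9 adipocyte genes 5 fell and of 12 pancreatic acinar genes 1 fell. The counts for interferon-stimulated, tuft, sterol, heat shock and acinar genes are near or below the shares of all genes and are no result about those lists. The same holds for the falls of squamous genes. Their 3 rises came to 1 with only the 9 control diet arrays. With median-centred arrays 6 interferon-stimulated, 6 heat shock and 4 tuft genes rose, and 3 adipocyte genes fell. In that setting 6598 of all 26075 genes were called higher and 2993 lower, in place of 3450 and 5118.

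**Figure D3:**
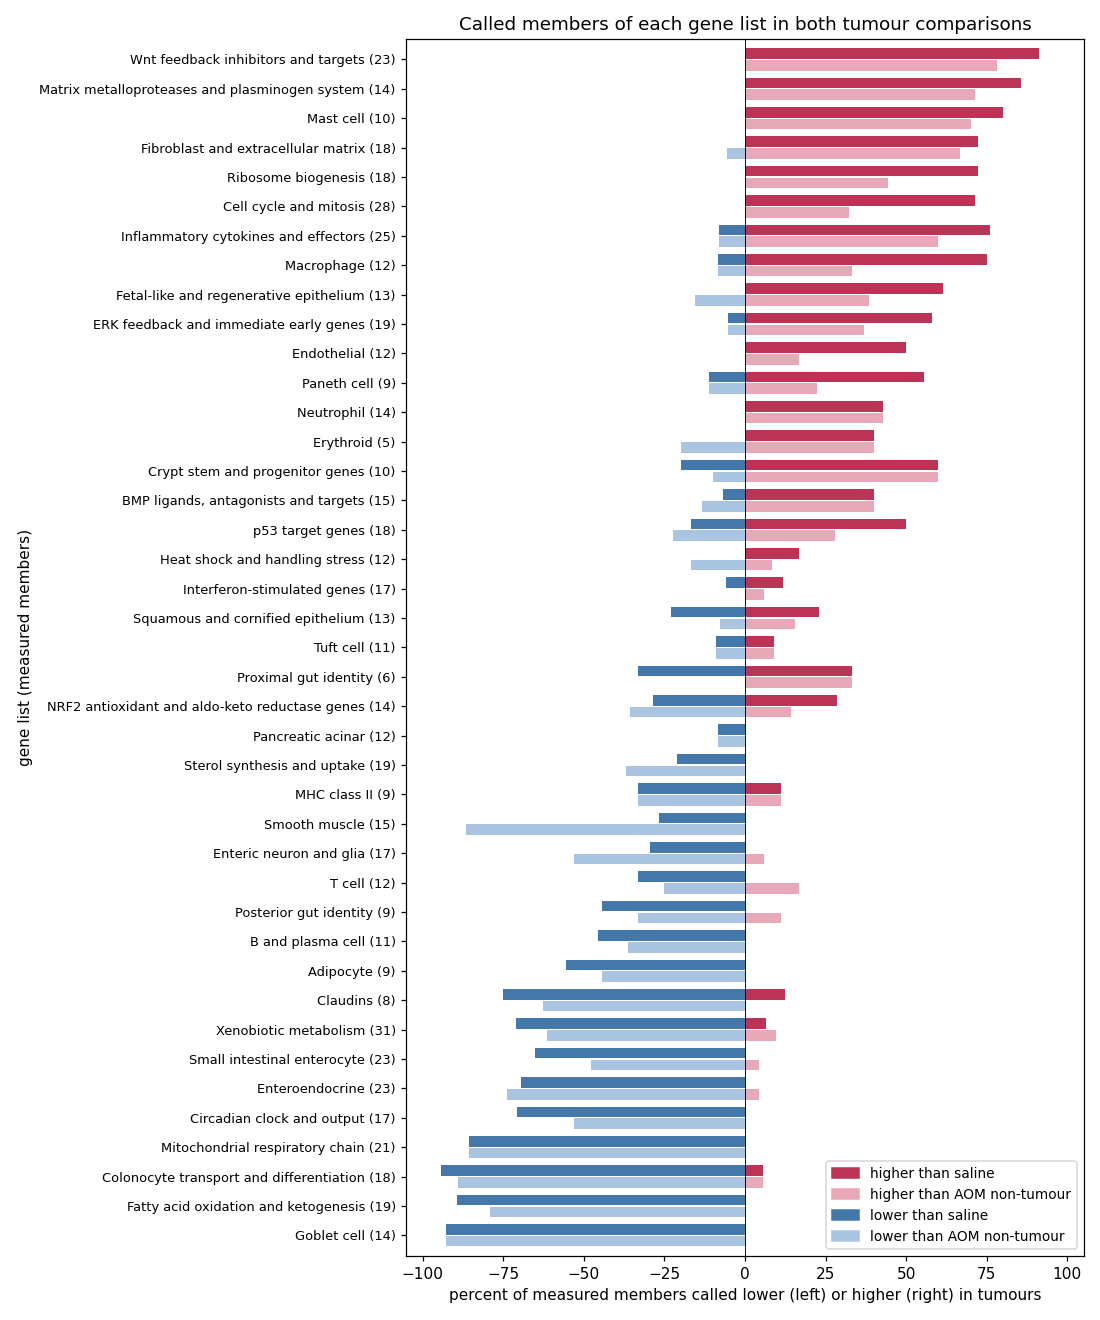
Bars give the percent of measured members (number in parentheses) of each gene list called higher (right) or lower (left) in tumours, dark against saline and pale against AOM non-tumour tissue, by limma at an adjusted p below 0.05. Of all genes 13.2% were called higher and 19.6% lower against saline. The 15 smooth muscle genes had 4 falls against saline and 13 against AOM tissue.

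The 2 references could differ for any gene, and AOM against saline non-tumour tissue is the test of that difference. It called 152 of 26075 genes (0.583%), 119 higher (0.456%) and 33 lower (0.127%) in AOM tissue. By calls, 5970 genes differed from both references in 1 direction (2157 higher, 3813 lower), 2596 from saline alone and 2362 from AOM tissue alone. A gene in the last 2 counts may have just missed the threshold in the other comparison: the AOM step was called for 63 of the 2596 and for 32 of the 2362. Its median was 0.31 over the 1291 rises and -0.32 over the 1305 falls against saline alone, which the choice of genes by these calls pulls in that direction. Only Sprr1a, a cornified envelope protein, and Mid1ip1, a regulator of lipid synthesis, were called in opposite directions.

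Of the 5970 genes called against both references in 1 direction, 52 also had a called AOM step in that direction. For these 52, 38 higher and 14 lower, all 3 comparisons were called in 1 direction. Among the 38, the median AOM step was 1.14 and the median tumour change against saline 2.17. Wif1, Nkd1 and Cd44 of the Wnt list belonged here. Tnfrsf11b, the decoy receptor osteoprotegerin, was at 0.24, 0.08 and 0.30 in saline, 1.35, 3.56 and 2.39 in AOM tissue and 5.31, 5 and 6.20 in tumours. Each group lay above the one before, with steps of 2.22 (limma adjusted p = 0.0391) and 3.07. Phlda3, a p53-induced inhibitor of AKT, had an AOM step of 1.73 and a tumour change of 2.74, and Mmp14, a membrane protease, 0.85 and 1.62. Among the falls, Slc37a2 and Dbp stepped down by 2.15 and 0.91 in AOM tissue and by 4.33 and 2.38 in tumours.

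A set of 63 genes, 53 higher and 10 lower, was called against saline in 1 direction for both AOM tissue and tumours. The same 3 saline arrays enter both of those calls. None of the 63 was called between AOM tissue and tumours. The set is labelled already reached, but a missing call with 3 arrays a group does not show equal levels. A tumour comparison against AOM tissue alone does not call these genes. Wfdc18, a whey acidic protein family member, was at 0.35, -0.06 and 1.04 in saline, 4.62, 4.48 and 4.30 in AOM tissue and 5.29, 5.57 and 5.63 in tumours. AOM tissue lay far above saline and below all tumours. Its tumour change was 5.06 against saline and 1.03 against AOM tissue (limma adjusted p = 0.166). Igfbp5, an IGF binding protein, was at -3.34, -3.29 and -3.02 in saline, -0.94, -0.68 and -1.29 in AOM tissue and -0.12, -0.31 and -1.01 in tumours, where AOM and tumour samples overlapped. Its AOM step was 2.25 (adjusted p = 0.00245). Ly6d, a surface protein of stratified epithelium, Tgm2, a transglutaminase, and Cldn4 had AOM steps of 2.06, 1.71 and 1.45 against tumour changes of 2.75, 1.86 and 1.81.

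The last set, of 32 genes, 23 higher and 9 lower in AOM tissue, was called between tumour and AOM tissue in the opposite direction and not between tumour and saline. The same 3 AOM arrays enter both the AOM step and this tumour comparison, with opposite sign. The choice of genes by these calls therefore pulls towards this pattern. A missing call against saline with 3 arrays a group does not show equal levels. Grem1, a BMP antagonist of stromal cells, was at 1.27, 0.24 and 2.02 in saline, 3.84, 5.22 and 2.75 in AOM tissue and 2.66, 2.36 and 1.82 in tumours. Tumours overlapped saline samples and lay below all AOM samples. The AOM step was 2.76 (limma adjusted p = 0.0336), the tumour change -1.66 against AOM tissue and 1.1 against saline (adjusted p = 0.133). E2f2, a cell cycle transcription factor, was at 0.05, 0.23 and 0.27 in saline, 1.38, 1.53 and 1.53 in AOM tissue and 0.49, 0.22 and 0.85 in tumours. Its tumour mean lay closer to that of saline than to that of AOM tissue. Capg, an actin-capping protein, lay between, with an AOM step of 1.37 and a tumour change of 0.64 against saline (adjusted p = 0.0533). No gene (0) was called above saline in AOM tissue and below saline in tumours, or the reverse.

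**Figure D4:**
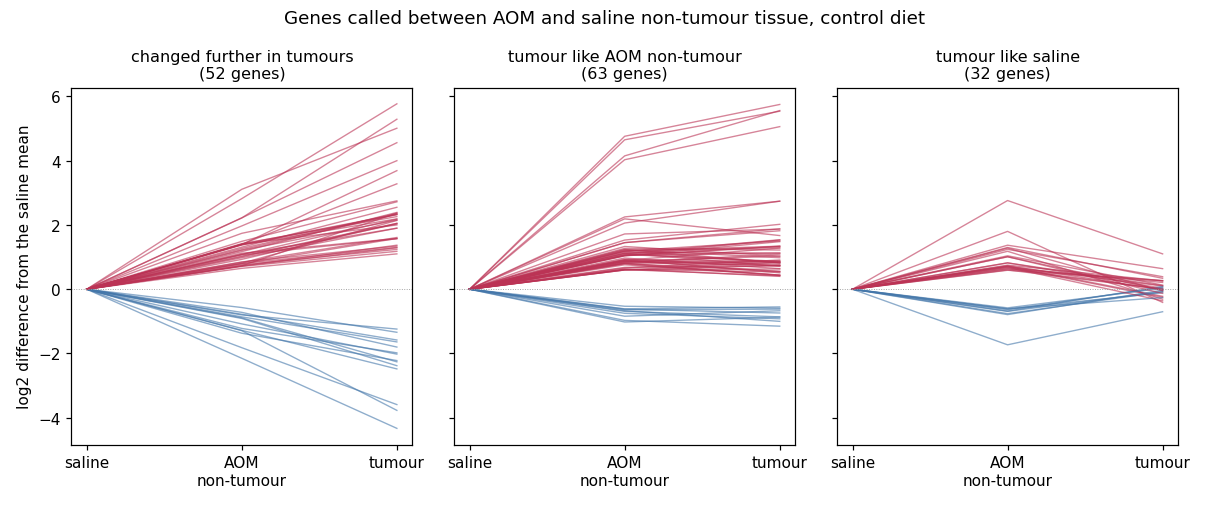
Lines join the group means of genes called between AOM and saline non-tumour tissue, as log2 difference from the saline mean (red, higher in AOM tissue, blue, lower). In the left panel 52 genes changed further in tumours. In the middle 63 were not called between tumours and AOM tissue. On the right 32 were called there in the opposite direction and not between tumours and saline.

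All 3 sets changed in size when single arrays were left out. With 1 control diet array left out, the set that went further held 4 to 56 genes, the set already reached 5 to 76 and the last 1 to 60. Without the 4 control diet arrays of brightest reference channel, saline 2 and 3, AOM 2 and tumour 3, and the 2 such SJW arrays, AOM against saline called 0 genes. That fit has 1 saline array against 2 of AOM tissue, with the spread taken from the other groups, so its count of 0 says little about the sets. The means of the SJW arrays did not enter the contrasts that chose these genes, though those arrays share in the estimated spread and the probe filter: with the 9 control diet arrays alone the sets held 13, 5 and 2 genes. On the SJW arrays the 38 that went further upward all had a positive AOM step, 19 of them called where 0.656% of all genes were called higher. All 38 rose in SJW tumours against SJW saline, where 13.7% of all genes did, and 36 of them over SJW AOM tissue, where 9.18% did. Of the 53 already reached upward, 49 had a positive SJW AOM step (23 called) and 42 rose in SJW tumours. Of these 53, 18 also rose in SJW tumours over SJW AOM tissue, so on that diet the tumours went further for them. Wfdc18 was among these, with a change of 2.08 (limma adjusted p = 0.0126), as were Igfbp5 (1.11), Ly6d (1.8) and Cldn4 (1.18). Of the 23 higher in AOM tissue and not in tumours, 21 had a positive SJW AOM step (3 called) and 0 rose in SJW tumours, of which 3 fell.

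Counts of smooth muscle genes differed between the references. Of 15 genes 13 fell against AOM tissue (median -2.86), where 19.3% of all genes did, and 4 against saline (median -0.70). The mean log2 level over the 15 genes was 0.10, -1.12 and 0.74 in the saline samples, 2.05, 2.24 and 0.80 in AOM tissue and -0.80, -0.90 and -1.14 in tumours. Saline samples spread widely, with saline 2 down at the level of the tumours, and AOM samples were highest. Myh11, smooth muscle myosin, was at 0.95, -1.48 and 1.63 in saline, 3.35, 3.24 and 1.75 in AOM tissue and -0.81, -1.1 and -1.38 in tumours. The change of -3.87 against AOM tissue was called (limma adjusted p = 0.00164), and that of -1.46 against saline was not (adjusted p = 0.166). The AOM step of 2.41 was not called (adjusted p = 0.162), as for all 15 genes of the list, so a difference between the references was not shown for any of them. The 4 falls against saline (Synpo2, Des, Cnn1 and Synm) came to 1 without saline 1, without saline 3 or without any 1 of the tumours, and against AOM tissue 11 to 13 were counted in those fits. How much muscle each piece of tissue held was not measured.

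**Figure D5:**
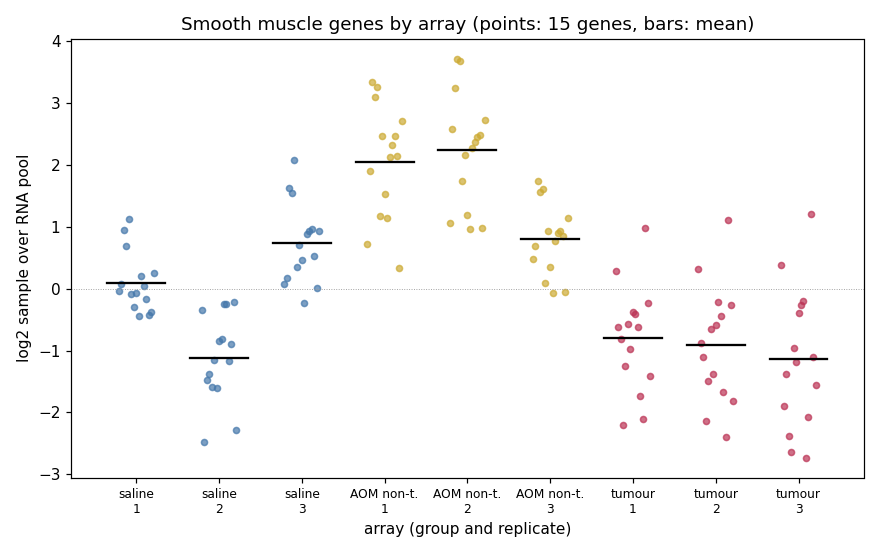
Log2 sample over pool levels of 15 smooth muscle genes (points) with their mean (bar) on each of the 9 control diet arrays. The mean is -1.12 in saline 2, close to -0.80 to -1.14 in the tumours, and 0.80 to 2.24 in AOM non-tumour tissue.

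Enteric neuron and glia genes had a similar order of counts. Against saline 5 of 17 were lower (1 to 8 over all settings), where 19.6% of all genes were. Against AOM tissue 9 were lower and 1 higher, where 19.3% and 12.7% of all genes were. The neuropeptide Vip was at 1.09, -0.11 and 0.87 in saline, 2.95, 3.30 and 1.65 in AOM tissue and 0.29, -0.44 and -1.37 in tumours. Saline and tumour samples overlapped and AOM samples lay above both. Its change was -3.14 against AOM tissue (limma adjusted p = 0.000752) and -1.12 against saline (adjusted p = 0.144). AOM against saline called 0 of the 17 genes, so a difference between the references was not shown for any of them.

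In mice on the SJW diet, tumours against SJW saline tissue had 9428 called genes (36.2%), 3560 higher and 5868 lower. No gene (0 of 26075, limma) was called for a difference between that tumour change and the one on control diet, with 2535 genes (9.72%) at an unadjusted p below 0.05 and a lowest adjusted p of 0.392. Wif1 rose by 4.89, Nkd1 by 4.95 and Axin2 by 2.42 on the SJW diet, against 5.77, 4 and 2.76 on control diet. The changes of Car4 and Slc26a3 were -6.18 and -6.2 on the SJW diet, against -6.68 and -6.6. Of the lists, Wnt genes rose in 21 of 23 on both diets, and cell cycle genes in 8 of 28 on the SJW diet against 20 of 28 on control diet, a difference that no single gene's test called.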

How the data were processed

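Sample groups were taken from the labels. Per the file headers, arrays were read with Agilent Feature Extraction 10.10.1.1 (protocol GE2_1010_Sep10). The deposited intensity values are median spot and local background intensities of both channels, the deposited log10 ratio is the scanner software's red over green, and a deposited log2 value table served as an alternative. In R 4.3.3 with limma 3.58.1, background was corrected with normexp (offset 50), ratios were normalized by loess within arrays, control and outlier spots were left out, and spots of a probe were averaged. A probe stayed in (34083 of 41174) where some group had it well above background in the sample channel in all 3 samples and a gene took its brightest probe, which gave 26075 genes, 16801 with a symbol. All 18 arrays entered 1 fit of 6 group means (12 residual degrees of freedom), with Benjamini-Hochberg adjustment in each comparison. On simulated data with 200 changed genes, 185 were called, 6 of them falsely. The simulation held no slide, scan day or scaling effect, so it does not give the share of false calls in the real data. Members and the 41 lists were chosen with earlier results of these data known. Named genes were the 12 largest changes each way, up to 3 per list, 6 to 8 per class and 12 fixed genes. Other list members were named as examples after their values were seen. The number of arrays limits the precision. Some list members are not reported by name here.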

Additional observations from a re-analysis of the deposited data

Results flagged for a closer look

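For Akr1b8, an aldo-keto reductase, the 3 control diet tumours all lay above the 3 saline samples (change 0.51) and the 3 SJW tumours all below the SJW saline samples (change -0.77). For Hspa1a, an inducible heat shock protein, the control diet tumours lay below saline (change -1.08) and the SJW tumours above (change 1.32). Both were flagged because the tumours lay on opposite sides of the saline samples on the 2 diets. For Akr1b8 the tumours overlapped, at 0.83 to 1.11 on control diet and 0.58 to 0.96 on the SJW diet. Its saline samples did not, at 0.41 to 0.58 and 1.35 to 1.74. The difference between the diets was not called for either gene by limma, with a lowest adjusted p of 0.392 over all genes. Of the 648 named or listed genes checked, 2 showed this pattern. Of all 26075 genes 71 did, a similar share.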

How the results depend on the processing

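Counts of calls against saline, 3450 higher and 5118 lower, moved by over 1.5 times under some of the 25 alternatives. With arrays centred on their median they were 6598 and 2993. With the deposited table the falls were 3130, with fits of 2 groups alone the rises were 2027, in a test against 2-fold 155 rose and 412 fell, and without the arrays of brightest reference, an alternative chosen after seeing the data, 1066 rose and 2271 fell. Leaving out 1 array gave 2454 to 3458 rises and 4035 to 5170 falls. Fewer arrays or a higher bar enter the last of these by construction, and the cause of the others was not tested.

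Genes called against both references (5970) numbered 3805 with the deposited table, 3709 with 2-group fits, 255 against 2-fold, 2636 without bright arrays and 4501 to 5592 with 1 array left out. Genes called against saline alone (2596) numbered 5145 with median centring, 312 against 2-fold, 700 without bright arrays and 1622 to 3687 with 1 array left out. Genes called against AOM tissue alone (2362) numbered 1185 with median centring, 44 against 2-fold and 1385 to 3252 with 1 array left out.

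The set that went further in tumours (52 genes) held 94 with median centring, 85 when only the red channel was used, 130 with the scanner's ratios, 95 with the deposited table, 146 without background correction, 13 with the 9 control diet arrays, 4 with 2-group fits and 0 against 2-fold or without bright arrays. The set already reached (63) held 136, 161 (scanner ratios), 129 (deposited table), 256 (no background correction), 5, 2, 0 and 0 in the same order, and 114 with reference brightness as a block. The last set (32) held 18 with the red channel alone, 74 with scanner ratios, 120 without background correction, 2 with 9 arrays, 64 with the brightness block and 0 with 2-group fits or against 2-fold. Left-out arrays gave 4 to 56, 5 to 76 and 1 to 60. Genes called on opposite sides of saline in AOM tissue and tumours (0) numbered 3 (red channel), 2 (scanner ratios), 1 (deposited table), 5 (no background correction), 1 (replicate block), 2 (brightness block) and 0 to 7 (arrays left out). Genes with opposite tumour calls (2) numbered 1 with median centring, scanner ratios, the deposited table or no bright arrays, 4 with the brightness block, 0 against 2-fold and 1 to 4 with arrays left out.

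Whether replicate numbers pair any samples cannot be told from these arrays. Deviations from the group mean of same-numbered saline and tumour samples, from different mice, correlated at -0.015, 0.224 and 0.368. Those of same-numbered AOM non-tumour and tumour samples correlated at 0.317, -0.329 and -0.313, and of differently numbered ones at -0.437 to 0.558. Deviations from a mean of 3 depend on each other, so these values do not decide it. With the replicate block 3305 genes rose and 4966 fell, and 5747 were called against both references.

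Of the named genes, Ddah1 (-0.06) became 0.61 with median centring, 0.17 with the red channel, 0.45 with scanner ratios and with the deposited table, 0.27 without background correction, 0.07 with the brightness block, 0.04 without bright arrays and 0.04 or 0.09 without saline 3 or tumour 1 (range over left-out arrays -0.16 to 0.09). Mki67 (-0.01) became 0.68 with median centring, 0.26 with the red channel, 0.10 with scanner ratios and the deposited table, 0.15 with the mean of probes, 0.07 with the brightness block and 0.10, 0.08 or 0.12 without saline 3, tumour 1 or tumour 2 (range -0.23 to 0.12). Median centring turned Trub1 to 0.08 (0.02 with the mean of probes), Il6 to -0.02, Ei24 to 0.35 (0.16 with the red channel), Krt13 to 0.07, Cryab to 0.06, Fos to 0.48 (0.80 with the red channel) and Actg2 to 0.27 (0.02 and 0.07 without saline 1 or 3, range -1.26 to 0.07). Pyy was 0.05 with the red channel. List medians turned with median centring for proximal gut (-0.05), sterol (0.39, and 0.05 with the mean of probes), T cell (0.19, and 0.15 without bright arrays) and squamous genes (0.07, and 0.19 and 0.28 with scanner ratios and the deposited table), and with the deposited table for acinar (0.08) and heat shock genes (-0.34). The cause was not tested.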
